A study of Mus musculus with 8 samples.

Results

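The genes of the major histocompatibility complex (MHC), named H2 in the mouse, and the 2 regulators that switch them on were examined in liver macrophages of C57BL/6 mice, a common inbred strain, kept on a normal diet (ND) or a western diet (WD). The genes were taken from the authors' table of diet-regulated genes as every row named Nlrc5 or Ciita and every row whose name starts with H2-. This gave 4 of 2386 genes in the table: the regulators Nlrc5 and Ciita, the class II gene H2-Eb2 and the class I gene H2-M2. Libraries of polyadenylated RNA came from 4 ND and 4 WD samples, and the series design gives 4 mice per diet. No other genotype, agent, age or sex is named in the labels used here, and neither the composition nor the duration of the western diet is given. The table writes its groups as WDV and NDV, with the V unexplained; they are read here as WD and ND. It holds 1 fold change per gene for the whole comparison and no value for a single library, so errors are the standard errors (SE) given there, and depth per library is unknown.

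MHC class I molecules show peptides made inside the cell to CD8 T cells, and class II molecules show peptides from engulfed material to CD4 T cells. NLRC5 and CIITA, both of the NOD-like receptor (NLR) family, do not bind DNA themselves. They are recruited to MHC promoters by the factors RFX, CREB/ATF and NF-Y, which sit on short elements called the X1, X2 and Y boxes. NLRC5 acts mainly on class I genes and CIITA on class II genes. Interferon-gamma induces both regulators. In the liver, class II is carried by dendritic cells, B cells, Kupffer cells and, at lower levels, sinusoidal endothelium.

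Promoter windows from RefSeq (GRCm38.p6, 250 bases before to 50 after the start of the gene) were matched for 2 of the 4 genes, H2-Eb2 and H2-M2, and not for Nlrc5 and Ciita. They are shown because the listed regulators act at such promoters. Capitals mark the letters of 5 motifs, searched on both strands: GCAAC (core of the X1 box), TGACG (core of the X2 box), CCAAT (core of the Y box), TTCNNNGAA (interferon-gamma activated site) and GAAA, any 2 bases and GAAA again (core of the interferon-stimulated response element). The window of H2-Eb2 is chr17:34325425-34325724 on the plus strand and that of H2-M2 is chr17:37483505-37483804 on the minus strand, both written 5′ to 3′ along the gene.
H2-Eb2: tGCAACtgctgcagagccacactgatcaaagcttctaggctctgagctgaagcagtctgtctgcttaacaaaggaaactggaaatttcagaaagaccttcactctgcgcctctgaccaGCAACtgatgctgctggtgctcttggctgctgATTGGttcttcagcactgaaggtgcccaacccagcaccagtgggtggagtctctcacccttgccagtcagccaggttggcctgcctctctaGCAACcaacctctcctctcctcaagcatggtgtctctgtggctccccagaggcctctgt
H2-M2: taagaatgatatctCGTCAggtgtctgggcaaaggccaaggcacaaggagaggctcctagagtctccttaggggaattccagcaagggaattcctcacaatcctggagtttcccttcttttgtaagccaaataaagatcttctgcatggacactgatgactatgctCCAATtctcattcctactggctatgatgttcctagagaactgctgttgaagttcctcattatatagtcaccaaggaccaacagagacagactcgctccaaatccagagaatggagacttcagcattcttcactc
GCAAC occurred 3 times in the H2-Eb2 window and CCAAT once, on the opposite strand. The H2-M2 window held 1 CCAAT and 1 TGACG, the latter on the opposite strand. Neither window held the letters of the 2 interferon elements. Of all 32851 promoter windows, 35.2% held GCAAC, 20.8% TGACG, 37.4% CCAAT, 8.30% TTCNNNGAA and 3.44% the response element core, so a single match is common. Matches are a description of the letters and show no binding.

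In H2-Eb2 a GCAAC began 132 bases before the start and an ATTGG, which is CCAAT read on the other strand, began 32 bases after it. This order and spacing, noticed in these windows and then counted, was searched as GCAAC followed by ATTGG 30 to 34 bases later on the strand of the gene. It was present in 35 of 32851 windows (0.107%), which belong to 34 genes. Among them were 5 of the 32 H2 genes that have a window, all of class II, and they are shown here to set H2-Eb2 beside its relatives, with the pair in capitals.
H2-Eb2: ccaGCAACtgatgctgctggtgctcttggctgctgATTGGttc
H2-Eb1: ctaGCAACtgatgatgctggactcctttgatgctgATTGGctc
H2-Aa: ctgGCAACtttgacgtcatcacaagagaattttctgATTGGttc
H2-Oa: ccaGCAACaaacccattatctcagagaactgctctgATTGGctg
H2-Ob: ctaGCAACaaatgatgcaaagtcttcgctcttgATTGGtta
The stretch of H2-Eb2 lies at chr17:34325540-34325582, and that of H2-Eb1, the gene of the main E beta chain, at chr17:34305773-34305815. They were identical at 34 of 43 bases (79.1%). This count includes the letters of the pair, which the search made identical. The stretches of H2-Aa, H2-Oa and H2-Ob differ in length and were not compared. Of these 5 class II genes, only H2-Eb2 was in the authors' deposited table. H2-M2 did not have the pair.

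All 4 genes were higher under western diet, by 2.86-fold to 3.53-fold in the authors' deposited table. They were selected on this comparison, since entry to the table required a p-value under 0.05 and a fold change above 2 in either direction. The values below therefore describe the genes and carry no test of them as a group. The adjusted p-values imply that 17531 genes entered the authors' adjustment. Of these, 3.0% were listed as higher at an adjusted p below 0.05, the limit used here for a call, and 8.35% as lower. A further 77 listed genes have a p-value and no adjusted p, so more genes were tested. Nothing is read from the 4 against this background, because the same comparison chose them. The gene nearest the p limit was H2-M2 (p = 0.00208 in the authors' deposited table), the gene nearest the fold limit was H2-Eb2, and no gene outside the limits has a value in the table.

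Nlrc5 (ENSMUSG00000074151, chromosome 8, 94434356 to 94527272, mm10) encodes the class I transactivator. Its mean normalized read count in the authors' deposited table was 865, higher than that of 93.2% of listed genes. With equal group sizes, and if the fold change is the ratio of the diet means, this corresponds to 382 in ND and 1348 in WD. The authors' deposited table gave a log2 fold change of 1.82 ± 0.20 (SE), a 3.53-fold rise with a 95% interval from 2.68 to 4.64 (adjusted p 7.40e-18). By p-value it stood 21st of the 706 listed genes with a positive fold change, and by size of the fold change 186th.

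Ciita (ENSMUSG00000022504, chromosome 16, 10480059 to 10528418) encodes the class II transactivator. Its mean count was 608 in the authors' deposited table, which corresponds to 295 in ND and 922 in WD. The rise was 3.13-fold, with an interval from 2.41 to 4.07 (log2 1.65 ± 0.19, adjusted p 6.08e-16, authors' deposited table). Among genes with a positive fold change it was 34th by p-value.

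H2-Eb2 (ENSMUSG00000067341, chromosome 17, 34325665 to 34341412) encodes a class II beta chain and is a neighbour and paralog of H2-Eb1. A mean count of 154 in the authors' deposited table corresponds to 79.5 in ND and 228 in WD. The authors' deposited table placed its rise at 2.86-fold, with an interval from 1.86 to 4.42 (log2 1.52 ± 0.32, adjusted p 2.03e-05). In the ranking of listed genes with a positive fold change, H2-Eb2 was 214th by p-value and 293rd by size of the fold change.

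H2-M2 (ENSMUSG00000016283, chromosome 17, 37480851 to 37483552) is a non-classical class I gene at the far end of the complex. From a mean count of 308 in the authors' deposited table, 156 was obtained for ND and 461 for WD. Its 2.96-fold rise had the widest interval of the 4, from 1.48 to 5.91 (log2 1.57 ± 0.51, adjusted p 0.00993, authors' deposited table). In the same ranking H2-M2 was 386th by p-value and 276th by size of the fold change.

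The 4 fold changes could not be ranked. They ran from log2 1.52 to 1.82 in the authors' deposited table, and each estimate lay inside the 95% interval of each of the others. The intervals of Nlrc5 and Ciita lay wholly above 2-fold, and those of H2-Eb2 and H2-M2 reached below it. The median log2 fold change of all 706 listed genes with a positive value was 1.38 in the same table.

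Levels of different genes were compared per kilobase of exon. Lengths were the union of all exons annotated for a gene in GENCODE M21 (8493 bases for Nlrc5, 9535 for Ciita, 3392 for H2-Eb2 and 1551 for H2-M2). A single transcript can be shorter than this union, so levels per kilobase can be understated. The order of the genes depends on this choice of length, and other lengths were not tried. Mean normalized counts per kilobase over both diets were 199 for H2-M2, 102 for Nlrc5, 63.8 for Ciita and 45.3 for H2-Eb2. H2-M2 thus had the highest level per union exon length, although Nlrc5 had the highest count. Per diet, H2-M2 stood at 100.3 in ND and 297 in WD, Nlrc5 at 45.0 and 159, Ciita at 30.9 and 96.7, and H2-Eb2 at 23.4 and 67.1 mean normalized counts per kilobase. With these lengths the order was the same in both diets, and no spread over libraries is available for these levels.

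**Figure D1:**
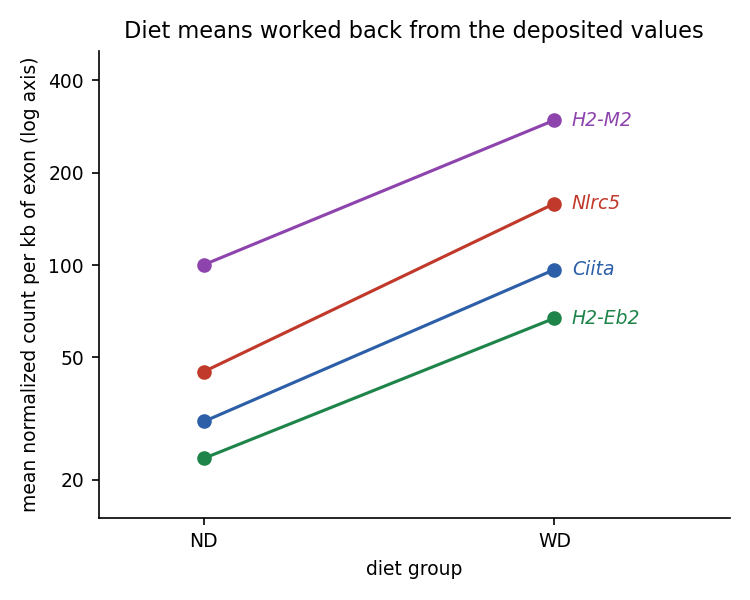
Mean normalized count per kilobase of exon (union of all annotated exons, log axis) in ND and WD for the 4 genes, worked back from the deposited mean count and fold change. Points are diet means without error bars, since values per library are not in the table; H2-M2 runs from 100.3 to 297 and lies above the other genes in both diets.

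Precision differed more among the 4 genes than the fold changes did. Each SE was set beside those of the 100 other listed genes with a positive fold change and the nearest mean counts. Entry to the table at p under 0.05 required an SE small against the fold change. Genes with a large SE are therefore missing from this set, and the comparison holds among listed genes only. For H2-M2, 3 of the 100 had a larger SE, and their median SE was 0.21 against its own 0.51 in the authors' deposited table. H2-Eb2 was exceeded by 15 of 100 (median SE 0.25), Nlrc5 by 43 (0.19) and Ciita by 50 (0.19). In a count model with 4 libraries per diet, an SE of this size corresponds to a coefficient of variation between libraries of one diet of 49.4% for H2-M2, 29.9% for H2-Eb2, 19.3% for Nlrc5 and 18.4% for Ciita. The H2-M2 estimate is therefore the least certain of the 4, and which libraries carry its spread cannot be seen in the table.

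**Figure D2:**
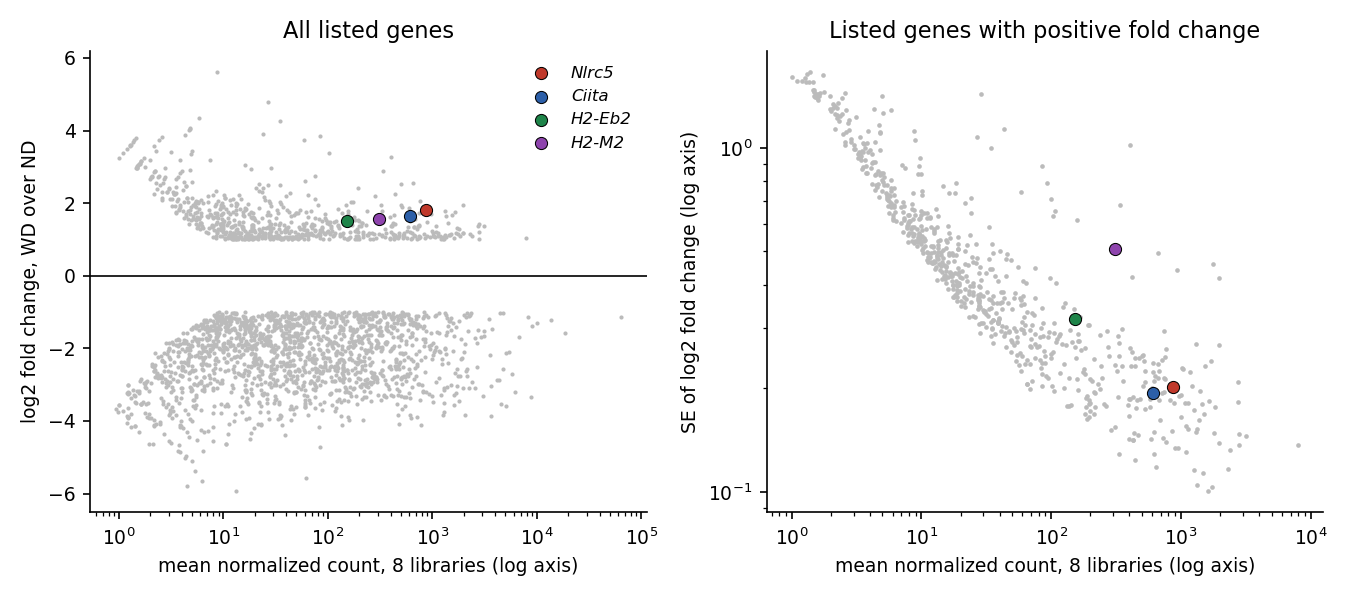
Left, log2 fold change (WD over ND) against mean normalized count over the 8 libraries (log axis) for all 2386 listed genes, in grey, with the 4 genes in colour; the empty band around 0 is the fold limit of the table. Right, SE of the log2 fold change against mean count (both axes log) for the listed genes with a positive fold change. H2-M2, at an SE of 0.51, lies above nearly all listed genes of like mean count, while Nlrc5 and Ciita lie within the main cloud. The p limit of the table kept out genes with an SE large against the fold change.

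Reads of near-identical genes could be a source of error in this family, so shared sequence was counted. None of the 3343 distinct words of 50 bases in H2-Eb2 transcripts occurred in a transcript of another gene of GENCODE M21. For H2-M2, 25 of 1548 words (1.61%) did, for Ciita 139 of 9496 (1.46%), all in Dexi, which overlaps it on the opposite strand, and for Nlrc5 29 of 8568 (0.338%), all in the long noncoding RNA 9330175E14Rik. The read length of the libraries is not given in the sources used here.

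Outside these 2, no H2 gene was listed. GENCODE M21 annotates 45 genes whose names start with H2-, 34 of them protein-coding, and 43 were not in the authors' deposited table. The classical class I genes H2-K1 and H2-D1, the classical class II genes H2-Aa, H2-Ab1 and H2-Eb1, and the class II loading genes H2-DMa, H2-DMb1 and H2-DMb2 were among those not listed. An unlisted gene may have changed by less than 2-fold, missed the p limit or not been measured, and these cases cannot be told apart here. The rise of Nlrc5 and Ciita in the authors' deposited table was thus not matched by a listed rise of the classical genes they act on, and nothing more can be said of those genes.

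The machinery that serves MHC molecules was likewise outside the table, apart from 1 protease gene. For scale, 11.4% of 17531 genes were called in either direction. None of 13 partners of the regulators at the promoter (among them Rfx5, Rfxap, Rfxank, Creb1 and Nfya) and none of 15 genes of class I processing and loading (among them B2m, Tap1, Tap2 and the immunoproteasome gene Psmb8) was listed. Of 9 class II processing genes, Ctsl, the gene of the lysosomal protease cathepsin L, fell (log2 -1.31 ± 0.19, adjusted p 9.17e-11, authors' deposited table), and 8, including the invariant chain gene Cd74, were not listed. Of 14 class I-like genes with other names, Fcgrt, the neonatal Fc receptor, fell (-1.20 ± 0.13) and Procr, the endothelial protein C receptor, rose (1.16 ± 0.42, adjusted p 0.0236) in the authors' deposited table. Markers of endothelium fell, as given below, and their part in these values was not tested.

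Genes of interferon-gamma signalling, which acts upstream of the regulators, came next. Of the 15 such genes reported here, 4 were lower, and the authors' deposited table did not hold the other 11. Over 17531 genes, 8.35% were called lower and 3.0% higher, and no enrichment is read from the 4. The authors' deposited table had Jak1, a kinase of the interferon-gamma receptor, lower (-1.02 ± 0.11), and also Irf1, which acts at the Ciita and Nlrc5 promoters (-1.03 ± 0.19). The feedback inhibitors Socs3 (-1.48 ± 0.16) and Socs1 (-1.25 ± 0.23) were lower as well in the authors' deposited table. Ifng itself, its receptor genes Ifngr1 and Ifngr2, Jak2 and Irf8 were not listed.

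The remaining lists concern contact with lymphocytes and the NLR family. Of 10 genes in the co-stimulation list, the authors' deposited table held 4, all higher. Besides Cd86 (log2 1.16 ± 0.12) they were Pdcd1lg2 (1.60 ± 0.28), Icosl, the ICOS ligand (1.18 ± 0.22), and Tnfsf4, the OX40 ligand (1.31 ± 0.41), with values from the authors' deposited table. Pdcd1lg2 encodes a ligand of the inhibitory receptor PD-1, so the list is not of co-stimulation alone. Of 19 receptors that bind MHC or MHC-like molecules, 9 were higher, none was lower and 9 were absent from the table, led by Klrk1, the NKG2D gene (1.87 ± 0.20), Klrd1, the CD94 gene (1.38 ± 0.21), Klra2 (1.10 ± 0.18) and Klrc1, the NKG2A gene (1.57 ± 0.28), in the authors' deposited table. The Klra genes are paralogs, and reads shared among them were not measured, so the Klra2 value is uncertain. Cd8b1 was listed without passing (1.77 ± 0.90, adjusted p 0.132, authors' deposited table). Of 16 other NLR genes, Nod2, a sensor of bacterial cell wall, rose from 261 to 525 mean normalized counts and Nlrp1b, an inflammasome sensor, from 134 to 268, as worked back from the authors' deposited table. The other 14 were absent from it. These lists were chosen with earlier results of the data known, so no enrichment is read from their counts. Of the 17531 genes in the authors' adjustment, 3.0% were called higher and 8.35% lower.

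**Figure D3:**
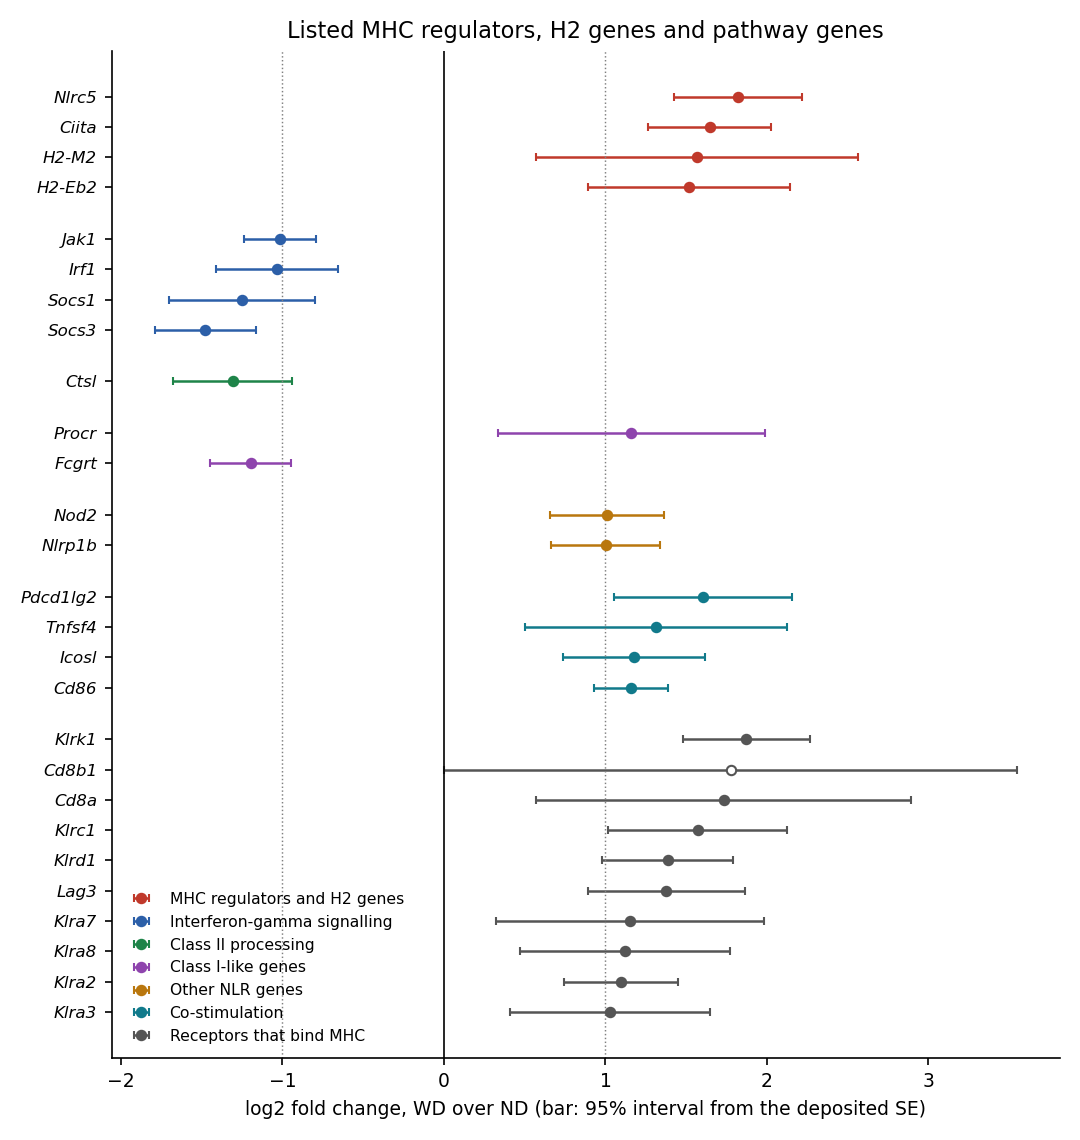
Log2 fold change (WD over ND) of Nlrc5, Ciita, H2-M2 and H2-Eb2 and of the listed genes of 6 pathway lists; bars are 95% intervals from the deposited SE, filled points have an adjusted p below 0.05, and dotted lines mark the fold limit of the table. Jak1, Irf1, Socs1 and Socs3 of interferon-gamma signalling lie to the left. The listed receptors that bind MHC and the co-stimulation list, which includes the PD-1 ligand gene Pdcd1lg2, lie to the right.

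Markers of cell types that carry MHC genes moved in the same comparison. No enrichment is read from the marker counts, which stand beside 3.0% called higher and 8.35% called lower of 17531 genes. The sums given are of mean normalized counts of the listed markers, worked back from the authors' deposited table. Only markers past the p and 2-fold limits enter a sum. A sum whose markers share a direction therefore changes more than 2-fold by selection, and the sums are not levels of a cell type. Of 10 dendritic cell markers, Ccr7, Cd209a, Flt3 and Xcr1 were higher and Zbtb46 was lower, and their sum went from 1610 in ND to 3518 in WD. The B and plasma cell list had Ms4a1 and Ighm higher out of 10 (sum 1064 to 2389, of which Ighm 1041 to 2341). Of 12 T and NK cell markers 7 were higher, with Gzmb, Ccl5, Ncr1 and Nkg7 first by p-value, and Trac did not pass (sum 948 to 2696). Among 10 monocyte markers 6 were higher, with Ms4a4c, Plac8, Itga4 and Ccr2 first, and Fn1, which made up most of their sum, was lower (92113 to 50589). All 10 markers of the sinusoidal endothelial list were lower, with Cldn5, Egfl7, Tie1 and Dnase1l3 first (61740 to 8759). That list also holds genes of endothelium in general, such as Pecam1 and Cdh5. Of 10 stellate cell and fibroblast markers 6 were lower, with Bgn, Lrat, Reln and Pdgfrb first (4445 to 1234). Of 10 hepatocyte markers Ass1, Cyp3a11 and Apob were higher (691 to 1687, of which Ass1 615 to 1402). Of 8 mast cell markers 6 were higher, among them Cma1, Cpa3 and Tpsb2, and Kit was lower (1314 to 925), with Kit alone going from 1267 to 379. None of 10 Kupffer cell markers was listed, so the table cannot show whether the labelled cell type carries its defining genes. Levels per library and of unlisted markers are not in the table, and the part of these cell types in the values of the 4 genes was not tested. In such bulk samples, a change in the number of cells of a type and a change in RNA per cell cannot be told apart.

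Listed genes near each of the 4 were examined next. Around Nlrc5, 14 other listed genes had start sites within 1 Mb, of 67 annotated, with 4 of them higher and 10 lower in the authors' deposited table. Among all listed genes, 526 were called higher and 1464 lower, so nothing particular to a region is read from such counts. The nearest was 9330175E14Rik, a long noncoding RNA on the opposite strand (chromosome 8, 94422898 to 94435103), whose start lies 0.747 kb inside Nlrc5. It rose 3.09-fold from a low mean count of 19.3 (log2 1.63 ± 0.43, adjusted p 0.00119, authors' deposited table). The exons of the pair share 78 bases, 0.918% of the exonic bases of Nlrc5. Whether counting used strand is not given in the sources used here, so reads in those bases cannot be assigned to one gene. The other higher genes were the chemokine genes Ccl22 (2.05 ± 0.26) and Cx3cl1 (1.27 ± 0.29) and the adhesion receptor gene Adgrg5 (1.43 ± 0.31), whereas its relatives Adgrg1 (-2.84 ± 0.22) and Adgrg3 (-2.14 ± 0.23) were lower in the authors' deposited table.

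Around Ciita, 1 of 50 annotated genes within 1 Mb was listed. It was Socs1, 305 kb downstream, and it had the opposite sign (log2 -1.25 ± 0.23, authors' deposited table). Around H2-Eb2, 12 of 181 annotated genes were listed, 3 of them higher and 8 lower. The nearest were noncoding and close to the limit: Gm20513, which overlaps H2-Eb1 on the opposite strand (log2 1.23 ± 0.49, adjusted p 0.0440), and Gm15821, which overlaps Tap2 on the opposite strand (1.64 ± 0.67, adjusted p 0.0495), in the authors' deposited table. Their mean counts were 16.2 and 6.96 in the authors' deposited table, and 44.0% of the exonic bases of Gm15821 are also exonic in Tap2. Around H2-M2, 4 of 123 annotated genes were listed. The 2 that passed, Gabbr1 (log2 -1.12 ± 0.21) and Zfp57 (-2.38 ± 0.42), were both lower in the authors' deposited table. The nearest, the olfactory receptor gene Olfr111, named after its values were seen, did not pass (log2 1.30 ± 0.53, adjusted p 0.0514, mean count 9.60, authors' deposited table).

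**Figure D4:**
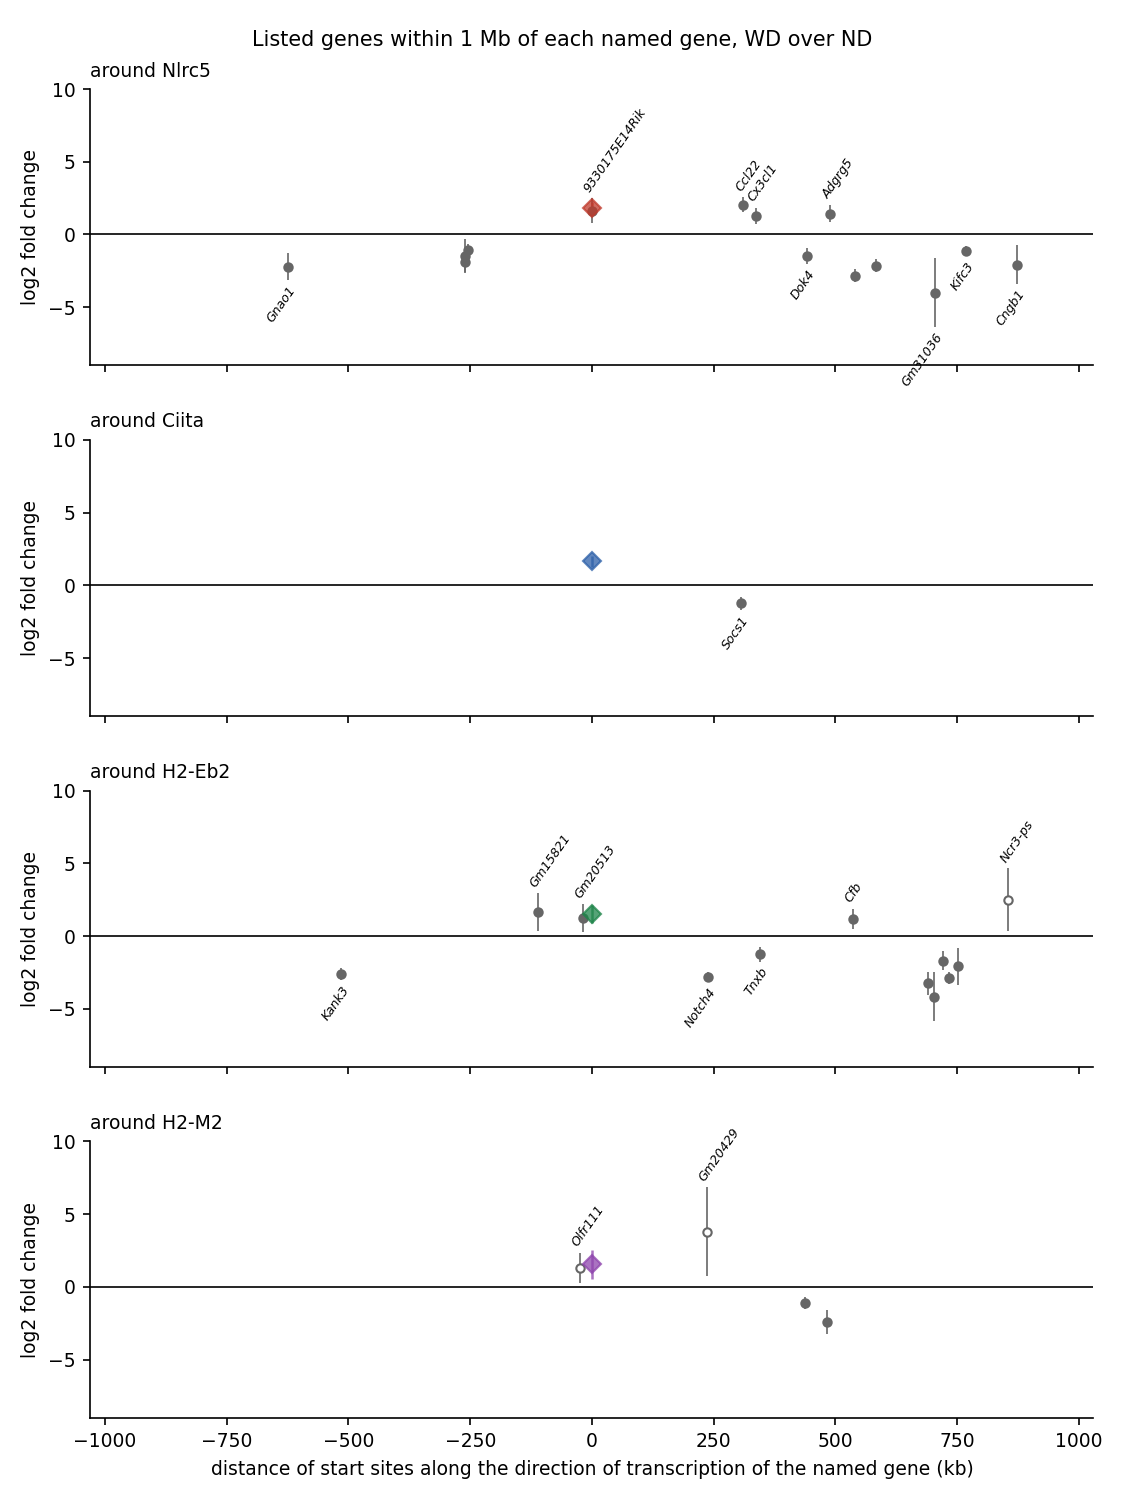
Log2 fold change (WD over ND) of listed genes with a start site within 1 Mb of Nlrc5, Ciita, H2-Eb2 and H2-M2, against distance in kb along the direction of transcription of the named gene, which is the coloured diamond at 0. Bars are 95% intervals from the deposited SE, filled points have an adjusted p below 0.05, and crowded points below 0 carry no name; most neighbours of Nlrc5 and H2-Eb2 lie below 0.

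The deposited file also holds the authors' own enrichment in biological process terms of the Gene Ontology (GO) and in KEGG pathways. Its input was genes with a positive fold change, whether called here or not. At least 1 of the 4 genes stood in 23 of 373 GO terms, 15 of them with a Benjamini p below 0.05. The same held for 25 of 78 KEGG terms, 19 of them below that limit, in the authors' deposited table. Of all terms, 132 of 373 in GO and 47 of 78 in KEGG were below it. Nothing particular to the 4 genes is read from these counts. Nlrc5 stood in 10 GO terms and in no KEGG term, and H2-Eb2 in 3 GO terms and 21 KEGG terms. The KEGG term antigen processing and presentation held 7 genes (Benjamini p 0.00849, authors' deposited table): Ciita, H2-Eb2, H2-M2, Cd8a, Cd8b1, Klrd1 and Klrc1. Of the 7, 4 are thus receptor genes of lymphocytes and 3 belong to the genes described here. Cd8b1 did not pass (adjusted p 0.132, authors' deposited table). The mean counts of Cd8b1 and Cd8a were low, at 4.13 and 9.84 in the authors' deposited table. Ciita was also among the 16 genes of cellular response to interferon-gamma (12.6-fold, Benjamini p 3.93e-10), with, named after their values were seen, the guanylate binding protein genes Gbp2, Gbp2b, Gbp3 and Gbp8 and the cytokine gene Il12b, in the authors' deposited table. Both regulators, and no other gene, stood under positive regulation of MHC class I biosynthetic process, a term of 6 genes that did not pass (Benjamini p 0.510, authors' deposited table).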

How the data were processed

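Poly(A) RNA of liver macrophages from 4 ND and 4 WD libraries was compared, grouped by the diet label. One table was used. Per the submitters' processing notes, featureCounts, DESeq, edgeR, HISAT2, STAR, StringTie and STAR-Fusion were used with the mm10 build, and no source used here says which tool made which value. Per the file headers, the authors deposited for each gene a mean normalized count (a signal averaged over libraries), a log2 fold change with its SE, a test score (fold change over SE), and a p-value with its adjusted p-value. The deposited enrichment terms carry gene numbers, a fold enrichment ratio and p-values. The table holds genes with p up to 0.04995 and a log2 fold change from 1.00011 in size; adjusted p was empty for 77 genes, which were not called. All calls use the authors' adjusted p-values at a limit of 0.05. Each p-value weighs a fold change against its SE, which comes from the authors' model and covers only these libraries. It does not measure a spread, and no value per library is given.

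From these values, diet means were worked back as 2 times the mean count over 1 plus the fold, for ND, and that value times the fold, for WD. The 95% intervals are normal intervals from the SE. The number of genes in the authors' adjustment, 17531, is the whole number that made most ranks (p times number over adjusted p) whole within 0.02. This held for 91.0% of genes. On 1 simulated table of 15000 genes the step returned 15000. Positions and union exon lengths come from GENCODE M21 (GRCm38, the same assembly as mm10) and all listed identifiers matched. Python 3.11.15 and pandas 2.3.3 were used. The 4 genes and all lists were chosen with earlier results of these data known. One gene of the interferon-gamma signalling list is not reported here and is left out of its counts. Every row of the 4 genes is named, with the called genes of each list (all if 5 or fewer, otherwise the 4 with the smallest p), and those of them listed without passing; of the listed neighbours some are named and the rest counted. Alternatives were a stricter or Bonferroni limit, an interval wholly beyond 2-fold, a count minimum, coding genes only and shrinkage.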

Additional observations from a re-analysis of the deposited data

How the results depend on the processing

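All 4 genes remained called as higher, and none as lower, at an adjusted p below 0.01. The authors' unadjusted limit could not change this, since the genes were selected at it. A mean count of at least 10 and protein-coding genes only could not change it either, since all 4 genes meet both. These settings are therefore no support for the calls. With a 95% interval wholly beyond 2-fold, 2 were left, Nlrc5 and Ciita. Bonferroni adjustment over 17531 genes left 3, without H2-M2. Shrinkage toward 0 (normal prior, SD 1) gave log2 fold changes of 1.75 for Nlrc5, 1.59 for Ciita, 1.38 for H2-Eb2 and 1.24 for H2-M2, and the 95% bounds nearest 0 were 1.42, 1.27, 0.89 and 0.57. The share of genes called higher, 3.0% of genes in the authors' adjustment, was 22% of listed genes. No paired analysis was possible because the table has no column per library. Leaving out libraries, another normalization and another count model were not run for the same reason. Depth limits the precision of the noncoding neighbours, whose mean counts lay below 20.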

Other observations

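The H2 complex, from the first to the last annotated H2 gene (chromosome 17, 33974659 to 37483552, 3.51 Mb, mm10), held 323 annotated genes, of which 16 were in the authors' deposited table. Of these, 5 were higher, 9 were lower and 2, Ncr3-ps and Gm20429, did not pass, beside 526 higher and 1464 lower among all listed genes. Apart from H2-Eb2, H2-M2 and the noncoding Gm20513 and Gm15821, the higher gene was Cfb, complement factor B (log2 1.17 ± 0.37, adjusted p 0.00686, authors' deposited table). Cfb shares 79.5% of its exonic bases with the overlapping annotation Gm20547 on the same strand, so its count depends on how such reads were assigned. The falls with the smallest p-values were those of Notch4, an endothelial Notch receptor (-2.84 ± 0.18), and Ddah2, an enzyme of the nitric oxide pathway (-2.87 ± 0.21), in the authors' deposited table. Larger in size was the fall of Sapcd1 (-4.17 ± 0.86), at a mean count of 8.03 in the authors' deposited table. Also lower in the authors' deposited table were Zfp57, an imprinting factor, Gabbr1, a GABA receptor gene, Vwa7 (-3.25 ± 0.41) and Tnxb (-1.26 ± 0.26), a matrix glycoprotein gene. Sapcd1, Msh5 and Ly6g6d completed the 9, and 53.2% of the exonic bases of Sapcd1 are also exonic in Vwa7 on the opposite strand.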
